A study of Homo sapiens with 6 samples.

Results

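The cytosolic ribosomal protein genes were taken from the gene count table by name. A gene was kept if it was annotated as protein-coding and its symbol began with RPL or RPS and a digit, or was RPLP0, RPLP1, RPLP2 or RPSA. Kinases of the RPS6K family and RPS19BP1, which share the prefix but are no ribosomal proteins, were left out. The rule gave 90 genes of 58735 in the table, 55 named for the large and 35 for the small ribosomal subunit, spread over 22 chromosomes. RNA was measured in SKOV3ip1, an established human ovarian adenocarcinoma cell line derived from SKOV3, which is known to carry many copies of ERBB2. Genotype was given as wild type, and all cells received 2 µg of siRNA with a lipid reagent in culture. One group received control siRNA and the other an siRNA against BARD1, the RING-domain partner of BRCA1, and both were collected after 48 h. Each group had 3 libraries numbered as biological replicates, made after poly(A) capture. The labels also call the material tumors, although the protocols describe cultured cells. No source used here says whether the cultures were transfected on separate days, so p-values measure only the spread between these libraries.

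The cytosolic ribosome is built from a small subunit, which reads the mRNA, and a large subunit, which joins amino acids. Nearly every one of its proteins is present once per ribosome and encoded by 1 expressed gene, so cells need their products in matched amounts, and surplus protein is degraded. Their mRNAs are among the most abundant in growing tumour cells. Most begin with a cytosine followed by a run of pyrimidines, the 5′ terminal oligopyrimidine tract, through which mTORC1 and LARP1 control their translation and stability.

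The starts of the genes whose values are described first are shown here, because that tract is a sequence feature most ribosomal protein genes share. Each window holds 15 bases before and 15 bases from the annotated start, 5′ to 3′ on the gene's strand, from RefSeq promoters on GRCh38.p14. Capitals mark a tract, a C followed by at least 4 bases that are C or T, read from the annotated start onward. C or T bases before the start are not counted, so the run in the genome can begin earlier and be longer. Read from a C 4 bases earlier, the run at RPL24 holds 14 bases.

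RPL24: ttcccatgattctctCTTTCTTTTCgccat

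RPLP0: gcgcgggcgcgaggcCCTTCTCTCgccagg

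RPS26: gagacacataacctcgattttcttccgcca

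RPS27: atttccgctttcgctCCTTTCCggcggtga

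RPS27L: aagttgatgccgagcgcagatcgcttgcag

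RPL26: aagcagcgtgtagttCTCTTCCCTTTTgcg

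RPL26L1: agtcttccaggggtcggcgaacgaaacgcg

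RPL28: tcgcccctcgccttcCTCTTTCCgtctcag

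RPL10: tttttccactctcagaaatatacgtctgtc

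The windows are chr3:101686704-101686733 for RPL24, chr12:120201097-120201126 for RPLP0 and chr15:63157463-63157492 for RPS27L, all on the minus strand, and chr12:56041903-56041932 for RPS26, chr1:153990747-153990776 for RPS27 and chr5:172958714-172958743 for RPL26L1, all on the plus strand. The RPL26 window is chr17:8383179-8383208 on the minus strand, RPL28 is chr19:55385917-55385946 on the plus strand and RPL10 is chrX:154398050-154398079 on the plus strand. Counted from the annotated start, RPL24 and RPLP0 hold tracts of 10 and 9 bases. The standard genes RPS27 and RPL26 have 7 and 12 bases counted that way. The windows of their second copies RPS27L and RPL26L1 hold no tract at the start.

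BARD1 mRNA had 805, 644 and 887 counts in the control libraries but 96, 110 and 169 after its siRNA, so the groups did not overlap. The log2 fold change was −2.58 (SE 0.14; adjusted p by the edgeR quasi-likelihood test = 1.21e-15). Library totals ran from 16621108 to 17743404 counts. Epithelial markers KRT7, KRT8, KRT18, EPCAM, PAX8 and ERBB2 were all expressed, and MUC16 had 12 and 13 counts per group. Of 10 markers of leukocytes, endothelium, stroma and red cells, PTPRC, CD68, CD3E and HBB had 0 counts in all libraries, and the highest, DCN, had 29 counts with control and 26 with BARD1 siRNA.

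Ribosomal protein mRNAs moved little with BARD1 siRNA. Of the 83 genes with enough counts to test, 20 fell, 4 rose and 59 did not pass (edgeR quasi-likelihood test, Benjamini-Hochberg adjusted over all 15271 genes tested, threshold 0.05). The share called was 28.9%, against 42.3% of all tested genes. Lower calls made up 24.1% of the members, with 20.3% over all genes, and higher calls 4.82%, with 22.0% over all genes. Their log2 fold changes ran from −0.50 to 0.16 with a median of −0.021, beside a median of −0.0075 over all genes. The standard deviation of the log2 fold change was 0.14 among the members and 0.64 among all genes, and 72.3% of members against 27.7% of all genes stayed within 1.1-fold. No member reached a 1.5-fold change, which 15.5% of all genes did with a call. The members are also measured more precisely, with a median SE of 0.05 on the log2 scale against 0.11 over all genes. In a bulk library, fewer cells holding a transcript and less of it per cell cannot be told apart.

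**Figure D1:**
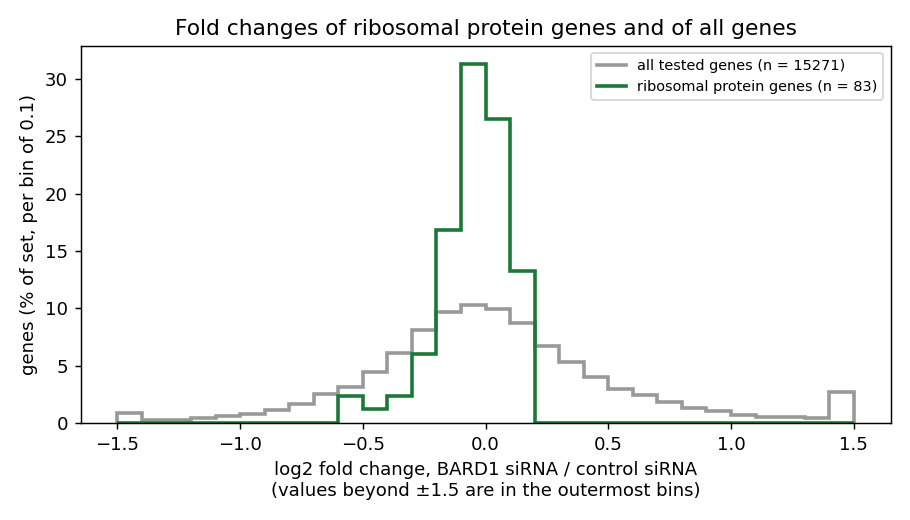
Distribution of log2 fold changes, BARD1 siRNA over control siRNA, in bins of 0.1, as percent of 83 tested ribosomal protein genes (green) and of 15271 tested genes (grey), with values beyond 1.5 put in the outermost bins. The green outline is narrow, from −0.50 to 0.16, with an SD of 0.14 against 0.64 for the grey one.

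Among the 20 members that fell, 10 encode proteins of each subunit, and all 20 had no overlap between the groups. Groups did not overlap for 29 of the 83 members, 34.9%, against 50.4% of all genes. The largest decrease was that of RPS26 (ENSG00000197728, GRCh38 chromosome 12, 56041351 to 56044697, plus strand), a small-subunit protein at the mRNA exit channel whose loss causes Diamond-Blackfan anaemia. Its normalised expression was 405, 447 and 475 CPM (counts normalised to library size) with control siRNA and 292, 315 and 331 CPM after BARD1 siRNA. Every BARD1 siRNA library was below every control library. RPS26 fell 1.42-fold, from a mean of 442 ± 34.9 CPM to one of 313 ± 19.7 CPM (SD, n = 3 per group; log2 difference −0.50, SE 0.05; adjusted p by edgeR = 9.19e-11).

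RPL24 (ENSG00000114391, chromosome 3, 101681091 to 101686782, minus strand), a large-subunit protein that reaches across to the small subunit, changed by as much. Its values were 384, 379.9 and 398 CPM in control libraries and 260.5, 269 and 292 CPM after BARD1 siRNA. RPL24 fell 1.42-fold, from a mean of 387 ± 9.19 CPM to one of 274 ± 16.1 CPM (log2 difference −0.50, SE 0.05; adjusted p by edgeR = 3.24e-12). The gap between the groups, from 292 to 379.9 CPM, was wider than the range within either.

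RPLP0 (ENSG00000089157, chromosome 12, 120196686 to 120201235, minus strand) forms the base of the stalk that recruits elongation factors, and is often chosen as a reference gene in quantitative PCR. Its values were 1624, 1663 and 1725 CPM in control libraries and 1339.9, 1315 and 1329.6 CPM after BARD1 siRNA. RPLP0 fell 1.26-fold, from a mean of 1671 ± 51.2 CPM to one of 1328 ± 12.5 CPM (log2 difference −0.33, SE 0.04; adjusted p by edgeR = 8.81e-09). Its stalk partners, RPLP1 and RPLP2, did not pass the test. RPLP1 was at 597, 685 and 651 CPM in control libraries and 654, 632 and 633 CPM after BARD1 siRNA (log2 fold change −0.01, SE 0.05). RPLP2 was at 449, 513 and 516 CPM against 451, 482 and 480.4 CPM (−0.06, SE 0.05). For both, control and BARD1 siRNA libraries overlapped. RPLP2 was called lower in 4 of the 20 alternative fits, with upper-quartile factors (−0.13), library size alone (−0.12) and GC offsets (−0.15), and without control siRNA replicate 1 (−0.13).

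Of the second copies of standard genes, RPS27L and RPL26L1 fell. RPS27L (chromosome 15, 63125872 to 63158021, minus strand), a paralog of RPS27, was at 27.8, 24.0 and 25.9 CPM in control libraries and 18.03, 19.3 and 20.2 CPM after BARD1 siRNA. It fell 1.35-fold (log2 fold change −0.44, SE 0.11; adjusted p by edgeR = 0.000664). RPS27 itself was at 244 ± 17.8 and 232 ± 9.09 CPM, with a log2 fold change of −0.08 (SE 0.05) that did not pass, although it was called lower under upper-quartile factors (−0.14) and by library size alone (−0.14). RPL26L1 (chromosome 5, 172958729 to 172969771, plus strand), the copy of RPL26, was at 32.7, 33.7 and 34.3 CPM in control libraries and 25.9, 27.4 and 27.3 CPM after BARD1 siRNA. It fell too (log2 fold change −0.32, SE 0.09; adjusted p by edgeR = 0.00394).

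The remaining 15 decreases were smaller, from −0.21 for RPL21 to −0.12 for RPL29 on the log2 scale. RPL21, a large-subunit protein, was at 330.0, 363 and 385 CPM in control libraries and 295, 324 and 309.5 CPM after BARD1 siRNA (log2 fold change −0.21, SE 0.05; adjusted p by edgeR = 0.000678). RPS4X, the X-linked small-subunit gene with copies on the Y chromosome, was at 1043, 1056 and 1173 CPM against 953, 940.0 and 929.9 CPM (−0.21, SE 0.05; adjusted p by edgeR = 0.000149). RPS3A, also of the small subunit, was at 486, 494 and 518 CPM against 455, 427 and 422 CPM (−0.20, SE 0.05; adjusted p by edgeR = 0.000452). In each of these 3 genes the highest BARD1 siRNA library lay below the lowest control library, for RPL21 by a narrow margin. Among the other 12 were RPL6, RPL7A, RPS27A, RPSA, RPS15, RPL7, RPL23, RPL4, RPS20, RPS13 and RPL29. RPS27A, made as a fusion of ubiquitin with a small-subunit protein, fell by 0.19 on the log2 scale, and RPSA, also known as a laminin receptor precursor, fell by 0.18. Of the members named here, RPL7, RPL23, RPL4, RPS13, RPS20 and RPL29 lost the call in 1, 2, 3, 3, 5 and 7 of the 20 alternative fits, each of them with the members as the scaling reference. Without BARD1 siRNA replicate 2, RPL23, RPL4, RPS13, RPS20 and RPL29 did not pass. RPS13, RPS20 and RPL29 also lost it without BARD1 siRNA replicate 1, RPL4 without BARD1 siRNA replicate 3, RPS20 without control siRNA replicate 3 or with GC offsets, and RPL29 without control siRNA replicate 1 or 2, with no filter and without robust estimation. Over these fits the adjusted p of RPL29 by edgeR ran from 0.0508 to 0.357.

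All 4 members that rose belong to the large subunit, and their increases were 1.09-fold to 1.11-fold. RPL10, which joins the ribosome late and lies near the site of peptide bond formation, was at 776, 869 and 844 CPM in control libraries and 912, 943 and 905 CPM after BARD1 siRNA (log2 fold change 0.15, SE 0.05; adjusted p by edgeR = 0.00705). RPL37 was at 289, 297 and 285 CPM against 306, 317 and 343 CPM (0.15, SE 0.05; adjusted p by edgeR = 0.0123). RPL28 was at 475, 542 and 512 CPM against 560.4, 563 and 550.3 CPM (0.13, SE 0.05; adjusted p by edgeR = 0.0257). The groups did not overlap in any of the 4. Of the exon bases of RPL10, 56.6% are overlapped by a gene on the opposite strand, and without a stated strand setting reads from the partner cannot be told apart.

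These increases depended on the scaling. Under upper-quartile factors no member was called higher and 33 were called lower, with a median of −0.087 over the members and −0.073 over all genes. Library size alone gave 0 higher and 32 lower, with medians of −0.082 and −0.067. At an unadjusted p under 0.05, too, 0 were higher under either scaling, against 7 with TMM factors. DESeq2 and limma-voom each called 4 higher and 20 lower. Higher calls numbered 1 without control siRNA replicate 1 or without BARD1 siRNA replicate 2, 2 without BARD1 siRNA replicate 3, and 11 without control siRNA replicate 2. With the members themselves as the scaling reference 13 were lower. Of the 20 decreases, 13 were called in all 20 alternative fits, among them RPS26, RPL24, RPS27L, RPLP0, RPL26L1, RPL21, RPS4X and RPS3A.

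**Figure D2:**
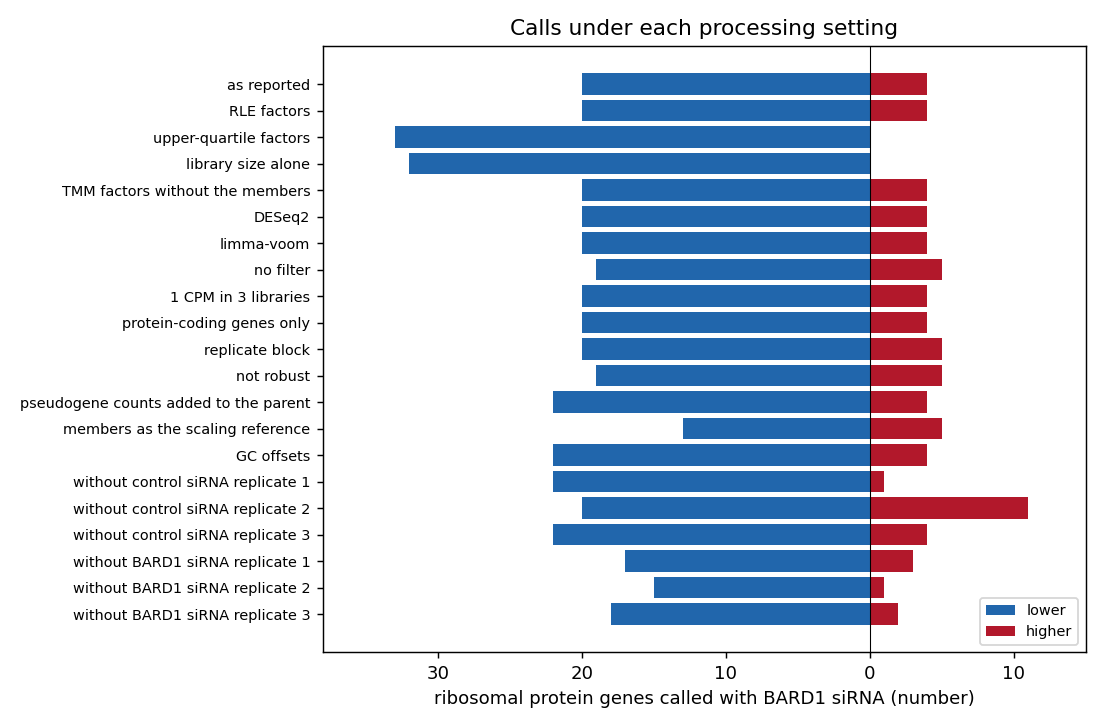
Number of members called lower (blue, to the left) and higher (red, to the right) as reported and under each of the 20 alternative fits. The blue bars run from 13 to 33 and the red bars from 0 to 11, with no red bar under upper-quartile factors or library size alone.

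**Figure D3:**
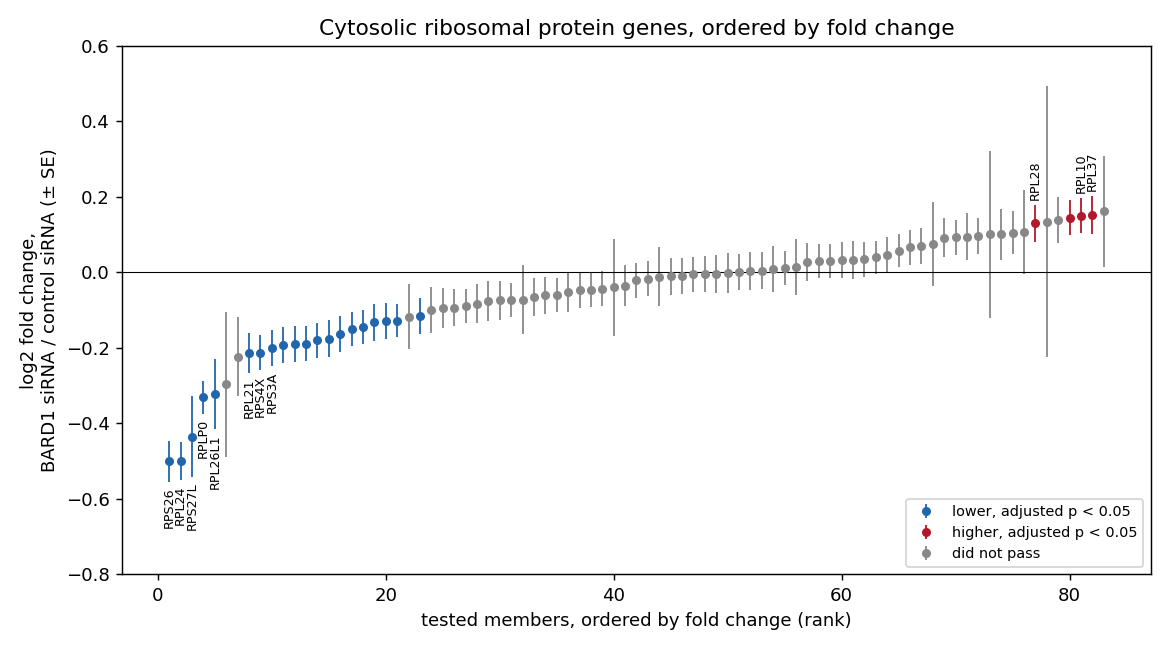
Log2 fold change with its SE (vertical axis) for each of the 83 tested members, ordered from the lowest to the highest (horizontal axis), blue for members that fell, red for members that rose and grey for the 59 that did not pass. Most lie within 0.1 of 0, RPS26 and RPL24 stand lowest at −0.50, and the 4 red genes lie between 0.13 and 0.15 and lose their call under upper-quartile factors or library size alone.

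**Figure D4:**
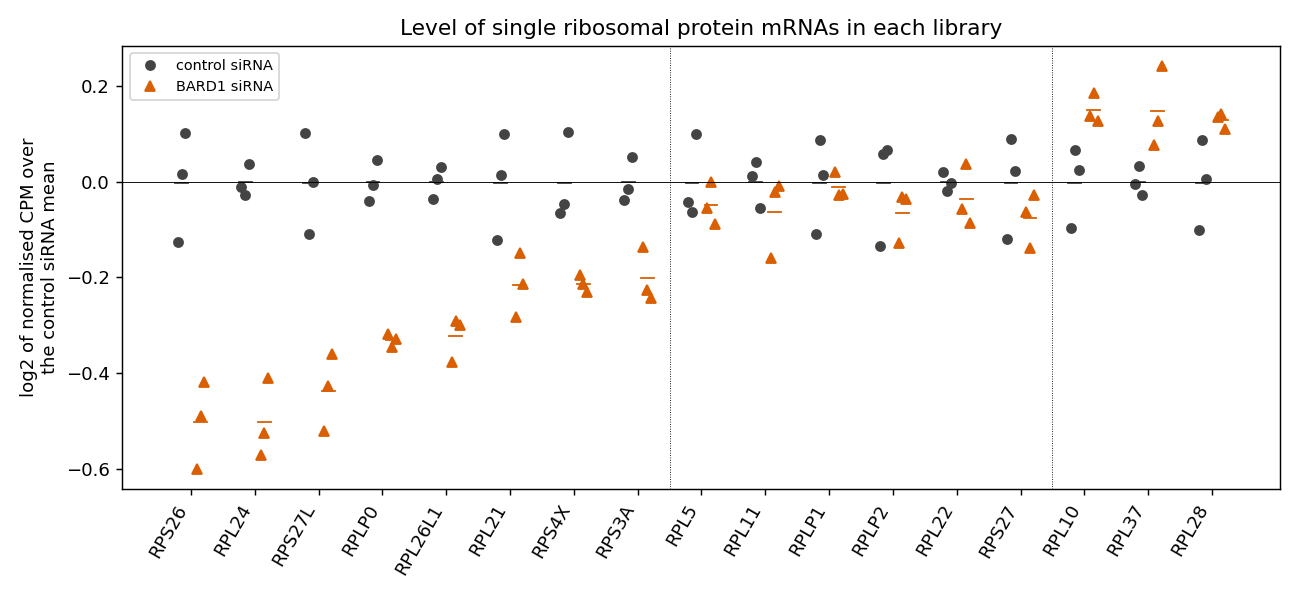
Each point is 1 library, as log2 of its normalised CPM over the mean of the control siRNA libraries, with group means as bars. Shown are the 8 called members with the lowest fold changes (left), 6 members that did not pass (middle) and 3 called higher (right), where only the outer genes have separate groups.

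By role, proteins of the 5S particle, which also bind MDM2 when they are free of the ribosome, did not pass. RPL5 was at 542, 534 and 599 CPM in control libraries and 538, 558 and 525 CPM after BARD1 siRNA (log2 fold change −0.05, SE 0.05; adjusted p by edgeR = 0.461). RPL11 was at 564, 576 and 539 CPM against 501, 552 and 556 CPM (−0.06, SE 0.05; adjusted p by edgeR = 0.325). For RPL5 and RPL11 the libraries of the groups overlapped, and RPL11 was called lower under upper-quartile factors (−0.13, adjusted p by edgeR = 0.0283) and by library size alone (−0.12, adjusted p by edgeR = 0.0360). Of 8 proteins at the rim of the peptide exit tunnel, edgeR called 0 and had 0 at an unadjusted p under 0.05, with log2 fold changes from −0.09 for RPL35 to 0.16 for RPL26. DESeq2 and limma-voom also called 0, while RPL35 was called lower under upper-quartile factors (−0.16), by library size alone (−0.15), with GC offsets (−0.15) and without control siRNA replicate 1 (−0.14). Without control siRNA replicate 2, RPL39 was called higher. Of 18 genes mutated in Diamond-Blackfan anaemia, RPS26 was the 1 that fell and 0 rose in edgeR, DESeq2 and limma-voom, and the other 17 had log2 fold changes from −0.10 to 0.16. At an unadjusted p under 0.05, RPL18 was the 1 gene of the 18 higher in edgeR, and it was called higher without control siRNA replicate 2. Under upper-quartile factors 5 of the 18 were lower. The large subunit had 4 higher and 10 lower of 51 tested members (median −0.0052), or 7.84% and 19.6%. The small subunit had 0 higher and 10 lower of 32 (median −0.067), or 0% and 31.25%. Over all tested genes, the background for all these lists, 22.0% were called higher and 20.3% lower. Small-subunit members called higher also numbered 0 at an unadjusted p under 0.05 in edgeR, and 0 in DESeq2 and limma-voom. The difference between the subunits was not tested gene by gene. Small-subunit genes held 37.2% ± 0.454 of all member counts in control libraries and 36.5% ± 0.314 after BARD1 siRNA (SD, n = 3 per group; two-sided exact permutation p = 0.2, smallest possible 0.1).

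Together the 90 genes took 4.23%, 4.52% and 4.40% of all gene counts in the control siRNA libraries and 4.02%, 4.09% and 4.04% in the BARD1 siRNA libraries. All BARD1 siRNA libraries were below all control libraries. The share went from 4.38% ± 0.147 to 4.05% ± 0.0367 (SD, n = 3 per group), a relative difference of −7.66%, with a two-sided exact permutation p of 0.1, the smallest that 3 against 3 libraries allow. Without RPS26, RPL24 and RPLP0 the share was 4.13% and 3.86%. This share rests on library totals, whereas the fold changes above use TMM factors, which were 1.02 to 1.03 in control and 0.977 to 0.982 in BARD1 siRNA libraries.

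Levels differed far more between members than between the groups. Per kb of the main transcript, RPS2, a small-subunit protein, was the most abundant, at a mean over the 6 libraries of 1994 CPM per kb. It was followed by RPL35 at 1562, RPL19 at 1507, RPL41, which encodes the smallest ribosomal protein, at 1359 and RPS15 at 1329 CPM per kb. The median was 551 CPM per kb over the 77 tested members that are no second copy. Before scaling to length, RPS2 was at 1921, 2133 and 1961 CPM in control libraries and 1908, 1977 and 1884 CPM after BARD1 siRNA. RPL35 was at 694, 730.3 and 777 CPM against 652, 692 and 720.0 CPM. RPL19 was at 1058, 1137 and 1070.5 CPM against 1143, 1118 and 1138 CPM. For these 3, and for RPL41 at 647, 746 and 567 against 593, 653 and 618 CPM, the groups overlapped and the test was not passed. RPS15 was at 654, 726 and 777 CPM against 630.1, 631 and 648 CPM, with no overlap, and fell by 0.18 on the log2 scale (SE 0.05; adjusted p by edgeR = 0.00322). In other fits more of the 5 were lower, RPS2 and RPL35 with upper-quartile factors, library size alone and GC offsets, RPL35 without control siRNA replicate 1 and RPL41 without control siRNA replicate 3. RPL19 lies 483182 bases from ERBB2 on chromosome 17 and RPL23 lies 834071 bases from it. RPL19 did not pass (log2 fold change 0.06, SE 0.04), while RPL23 fell by 0.14 and ERBB2 by 0.14. Without BARD1 siRNA replicate 2 neither passed, at adjusted p by edgeR of 0.0501 for RPL23 and 0.0661 for ERBB2, which also missed the threshold without control siRNA replicate 1 (0.0538). With the members as the scaling reference both missed it as well, at 0.0920 for RPL23 and 0.116 for ERBB2.

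Some standard genes read far below the others and also share most of their annotated exons with another gene. RPS10, RPL17, RPL36A and RPL26 share 77.0%, 91.0%, 77.6% and 59.0% of the bases of the main transcript with a gene on the same strand, such as the read-through gene RPS10-NUDT3. They held 3.29, 30.5, 16.5 and 21.5 CPM per kb. The counting rule for shared reads is unknown here, and the part of the overlap in these levels was not tested. RPL37 and RPL28 also read low per length, at 39.8 and 111 CPM per kb, with main transcripts of 7686 and 4796 bases in the annotation.

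**Figure D5:**
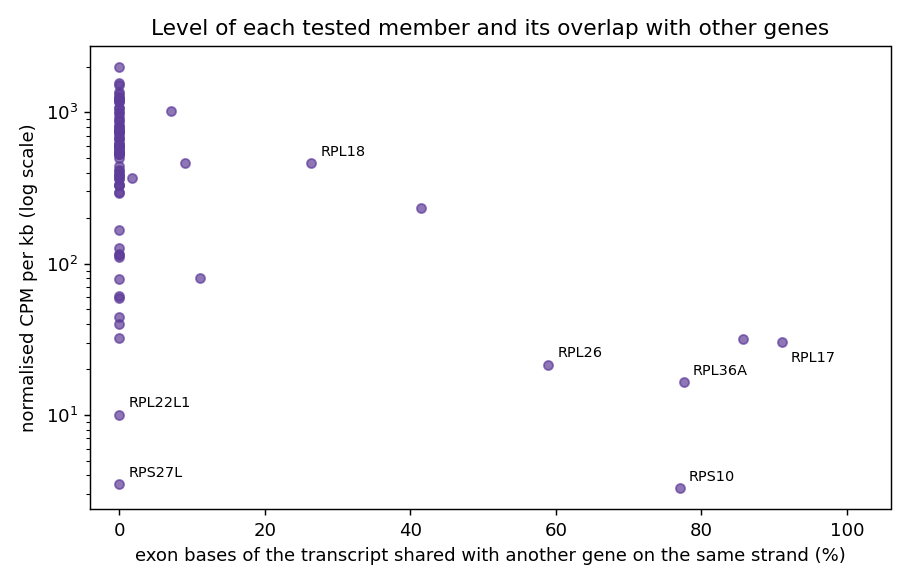
Mean normalised CPM per kb of each tested member (log axis) against the percent of its main transcript's exon bases shared with another gene on the same strand. RPL26, RPS10, RPL36A and RPL17, at 59.0% to 91.0% overlap, lie between 3.29 and 30.5 CPM per kb, below nearly all members without overlap.

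The second copies were compared with their standard genes as a share of the pair's CPM per kb, for 6 pairs. RPS27L held 0.593% ± 0.0867 of its pair with control siRNA and 0.460% ± 0.0278 with BARD1 siRNA. RPL26L1 held 71.0% ± 5.13 and 63.5% ± 3.00, values that rest on the low reading of RPL26. RPL7L1 held 9.83% ± 0.427 and 10.8% ± 0.248 of its pair with RPL7, which fell while RPL7L1 did not pass (log2 fold change −0.0050, SE 0.05). For these 3 pairs the groups did not overlap, yet each exact permutation p was 0.1, the smallest possible, and 0.2 after Benjamini-Hochberg adjustment over the 6 pairs. RPL22L1 (10.8% and 11.6%), RPL36AL (85.9% and 89.1%) and RPL39L (8.53% and 6.86%) overlapped between the groups in this share. The shares depend on what is counted. With pseudogene counts added, RPL36AL held 45.0% and 52.6% and its groups no longer overlapped (exact permutation p = 0.1, adjusted 0.15). With exon-union lengths in place of the main transcript, RPL22L1 held 20.4% and 21.7% and RPL39L 26.1% and 21.9%, still with overlap. RPS27L, whose main transcript has 6434 bases in the annotation, then held 1.20% and 0.930%, without overlap. As single genes, RPL7L1 was at 236, 222 and 236 CPM in control libraries and 229.9, 226 and 236 CPM after BARD1 siRNA, and RPL22L1 at 19.1, 20.3 and 24.96 against 21.0, 21.8 and 24.99 CPM. RPL36AL was at 81.8, 92.1 and 75.6 CPM against 84.7, 89.9 and 92.9 CPM, and RPL39L at 26.5, 23.3 and 28.9 against 21.3, 22.3 and 23.8 CPM. In all 4 the groups overlapped. RPL22L1, RPL36AL and RPL39L did not pass, at log2 fold changes of 0.07, 0.10 and −0.22. Without control siRNA replicate 2, RPL36AL was called higher (0.18) and RPL39L lower (−0.30), and RPL39L was also lower under upper-quartile factors (−0.29) and by library size alone (−0.28).

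Of the 90 members, 7 were not tested. RPL3L, the copy of RPL3 used in heart and skeletal muscle, had 3 counts over the control and 7 over the BARD1 siRNA libraries. The read-through genes RPL17-C18orf32 and RPS10-NUDT3 had 6 against 1 and 0 against 3 counts. RPL36A-HNRNPH2, the testis copy RPL10L and the Y-linked RPS4Y1 and RPS4Y2 had 0 counts in all 6 libraries, which leaves room for 3 counts in each library.

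Processed copies of ribosomal protein genes also held reads. The table holds 2244 ribosomal protein pseudogenes, of which 702 had a count and 121 could be tested, with 5 higher and 12 lower (median log2 fold change −0.12), beside 22.0% higher and 20.3% lower of all tested genes. They took 0.2005% ± 0.0107 of counts in control libraries and 0.178% ± 0.00196 after BARD1 siRNA. For RPS10, RPL36A, RPS28 and RPL17 the copies held more counts than the gene. RPS10 had 39, 20 and 48 counts in control libraries and 17, 46 and 50 after BARD1 siRNA, while a single copy on chromosome 11, AC024293.1, had 1526, 1374 and 2081 against 1082, 1283 and 1266. That copy fell by 0.39 on the log2 scale (SE 0.13; adjusted p by edgeR = 0.0463). With all copies added to the parent, RPS10 went from 0.13 (SE 0.36, not called) to −0.35 (edgeR adjusted p = 0.0409) and RPL36A from −0.30 (SE 0.19, not called) to −0.33 (edgeR adjusted p = 0.000357). No other call of a member changed with that sum. RPL24P4, a copy of RPL24, fell by 0.57 on the log2 scale (edgeR adjusted p = 0.000716), and RPS26's copy AC004057.1 had −0.53 (SE 0.31) and did not pass. Where reads are divided between a gene and its copies, neither value belongs to 1 locus with certainty.

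Most members agreed closely within a group, with a median within-group SD of 0.064 on the log2 scale against 0.13 over all genes. RPS10, RPL36A, RPL23A and RPL26 varied most. RPL23A, a protein at the exit tunnel, was at 269, 309.9 and 181 CPM in control libraries and 264, 275 and 275 CPM after BARD1 siRNA, so that control replicate 3 stood low. By base composition, among the 27 members of lowest GC content 1 rose and 9 fell, among the middle 29 it was 0 and 7, and among the 27 of highest GC content 3 rose and 4 fell. Their median log2 fold changes were −0.047, −0.073 and 0.033, in no steady order, while lower calls went from 9 to 7 to 4. Across the 83 tested members the log2 fold change correlated with GC content at a Spearman rho of 0.22. The rho was 0.28 over the 77 tested members that are no second copy and 0.14 over other protein-coding genes. Other protein-coding genes in those GC ranges had 26.7%, 24.1% and 18.1% lower and 22.1%, 23.4% and 26.9% higher calls. The part of GC content in the members' values was not tested beyond these descriptions and a fit with GC offsets. That fit gave 4 higher and 22 lower members.

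The tract was common at these genes. RefSeq promoters were found for 72 members, 67 of them tested. A tract, as spelled out above, was read on the gene's strand only. Reading from a C within 5 bases of the annotated start found it in 77.6% of the tested members and 21.1% of all 27305 promoters. Reading from the start itself, whatever base came before, found it in 64.2% and 4.04%. Among members with a promoter entry, 9 of the 16 that fell had it in that window, 1 of the 2 that rose and 42 of the 49 that did not pass. Among genes that fell, RPL24 and RPLP0 hold a tract at the start, and RPS26, RPS27L and RPL26L1 hold none within that window, as read in these letters. A match is a description of letters in RefSeq and says nothing of which start these cells used.

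Ribosome components outside the naming rule also moved little. FAU, made as a fusion with a ubiquitin-like protein, had a log2 fold change of 0.01 (SE 0.05), and RACK1, a scaffold on the small subunit, had −0.04 (SE 0.04). Of the 3 genes in this list, 0 were called in edgeR, DESeq2 or limma-voom, and 0 had an unadjusted p under 0.05 in edgeR. RACK1 was called lower under upper-quartile factors. Of 20 tested mRNAs outside the naming rule known to carry the tract, a list that holds FAU and RACK1 too, 3 rose and 3 fell (median −0.053), beside 22.0% higher and 20.3% lower of all genes. The translation factors EIF4B and EEF2 rose by 0.23 and 0.14 and TPT1, a growth-related protein, by 0.31. EEF2 lost its call without BARD1 siRNA replicate 1 (adjusted p by edgeR = 0.119), under upper-quartile factors (0.186), by library size alone (0.142) and with GC offsets (0.2097). The elongation factor EEF1A1 fell by 0.27, the histone chaperone NAP1L1 by 0.32 and nucleophosmin, NPM1, by 0.24.

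Regulators of these mRNAs had 7 higher and 3 lower of 20 tested (median 0.076), read against the 42.3% of all genes that were called. EIF4EBP1, which holds back cap-dependent translation when mTORC1 is off, was at 62.5 ± 6.92 CPM in control libraries and rose to 104 ± 2.53 CPM (log2 difference 0.73, SE 0.07; adjusted p by edgeR = 6.51e-13). PDCD4, an inhibitor of EIF4A, rose by 0.68, LARP1B by 0.50 and TSC1, a brake on mTORC1, by 0.42 on the log2 scale. MLST8, a subunit of mTORC1, fell by 0.34, TIA1 by 0.29 and the cap-binding EIF4E by 0.24. LARP1, MTOR and RPS6KB1, at log2 fold changes of 0.06, −0.12 and 0.09, did not pass. MTOR was called lower without control siRNA replicate 2 (adjusted p by edgeR = 0.0460), without BARD1 siRNA replicate 3 (0.0435), under upper-quartile factors (0.00599), by library size alone (0.00798) and with GC offsets (0.0256).

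Chaperones dedicated to single ribosomal proteins had 1 higher and 2 lower of 10, with 22.0% higher and 20.3% lower over all genes, a background that also applies to the next lists. TSR2, which escorts RPS26, rose by 0.26 on the log2 scale (SE 0.08), while RPS26 fell. HEATR3, which helps bring RPL5 into the nucleus, fell by 0.63 from 49.0 ± 1.34 to 31.6 ± 1.15 CPM, and PRMT3, which methylates RPS2, fell by 0.22. TSR2 missed the threshold without control siRNA replicate 3 (adjusted p by edgeR = 0.0518). PRMT3 missed it without control siRNA replicate 1 (0.0744), control siRNA replicate 2 (0.0557) or BARD1 siRNA replicate 1 (0.1496), with GC offsets (0.0869) and with the members as the scaling reference (0.0779). Of 5 genes around free RPL5 and RPL11, CDKN1A rose from 12.8 ± 1.01 to 121 ± 4.03 CPM, and MDM4 and NOP53 rose by 0.52 and 0.49 on the log2 scale. MDM2, at 0.05, did not pass. Of 12 genes that sense stalled ribosomes or remove unassembled proteins, 6 rose and 2 fell, 66.7% against the 42.3% called over all genes. ZNF598, which marks collided ribosomes, rose by 0.59, the ligase LTN1 by 0.40 and MAP3K20, the kinase that signals ribosome stress, by 0.35, while GCN1 fell by 0.33 on the log2 scale.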

How the data were processed

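Poly(A)-captured RNA of 6 libraries was sequenced. The deposited values are unscaled whole-number counts of reads for each gene, made by the authors. HISAT2, CASAVA and GRCh38 (hg38) are named per the submitters' processing notes. No source used here names the counting program, its strand setting or the annotation. The gene length in the deposited table equals the summed exons of GENCODE release 29 for all 58735 genes. The counts were tested with edgeR 4.0.16 in R 4.3.3 by the robust quasi-likelihood test with TMM factors, after filterByExpr (minimum count 10, minimum total 15), in a model of the group alone. The SE is the log2 fold change over the square root of F. Normalised CPM values use TMM-scaled library sizes summed over the 15271 tested genes, not the whole-table totals of 16621108 to 17743404 counts. Intervals of any kind cover counting and replicate error only. Main transcripts were chosen by APPRIS rank, basic tag, RefSeq link and shortest length. The script was tested on simulated data. Values per library are given for the 8 members with the largest decreases, members that rose, the 5S and stalk genes, second copies and the 5 most abundant, with summaries for their standard genes and examples of other members, and some genes are not reported here. Members and lists were chosen with earlier results of these data known. Alternatives were other scalings, DESeq2 1.42.0, limma-voom 3.58.1, other filters, a replicate block, summed pseudogenes, GC offsets and leaving out each library.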

Additional observations from a re-analysis of the deposited data

How the results depend on the processing

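Lower and higher member calls stayed at 19 or 20 and 4 or 5 with RLE factors, DESeq2, limma-voom, other filters, TMM factors without the members and the test without robust estimation. With upper-quartile factors 33 were lower, 0 higher and the median was −0.087. With library size alone the values were 32, 0 and −0.082. The median over all genes was then −0.073 and −0.067. With the members as the scaling reference 13 were lower. Leaving out 1 library gave 15 to 22 lower and 1 to 11 higher calls. No called member changed sign. Among the members with values in the text, signs turned for some that had not passed. With pseudogenes added RPS10 went to −0.35, with a call, and RPL17 to −0.14, without one. The others were RPL19 with upper-quartile factors (−0.0079) and library size alone (−0.0024), RPL22 with GC offsets (0.022) and RPL26 with pseudogenes added (−0.025). RPL7L1 and RPLP1 turned with the members as reference (0.020 and 0.017) and with GC offsets (0.031 and 0.0035). When each library was left out in turn, RPL22L1 ranged from −0.0058 to 0.19, RPL26 from −0.015 to 0.27, RPL41 from −0.17 to 0.032, RPL5 from −0.080 to 0.0021, RPL7L1 from −0.036 to 0.0097, RPLP1 from −0.066 to 0.033, RPS10 from −0.14 to 0.46 and RPL23A from −0.096 to 0.27. The cause was not tested. Reading the tract only from the exact annotated start gave 64.2%. GC offsets, pseudogene sums, exon-union lengths and the share without 3 genes include settings chosen after seeing the data.

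Deviations of same-numbered libraries from their group means correlated at −0.011, −0.017 and −0.024, so no shared effect of the replicate number was visible. These values cannot show whether the libraries were paired by design, which no source used here states. A fit with the number as a replicate block called 5 members higher and 20 lower. The precision is limited by 3 libraries per group and, for RPS10, by as few as 17 counts in a library.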
